A study of Rattus norvegicus with 6 samples.

Results

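Transcripts of 8 genes for proteins that the liver secretes into the blood, the hepatokines Ahsg, Fetub, Angptl6, Angptl8, Lect2, Gdf15, Inhbe and Tsku, were examined in liver RNA. The genes were taken from the 32930 rows of the deposited expression table by their symbols, and each symbol had 1 row. Of the 6 livers, 3 came from animals on a high-fat diet that received only the carboxymethyl cellulose vehicle (HFD group), and 3 from animals that received HTG, the herbal Huazhuo Tiaozhi granule, on this diet (HTG group). All animals were therefore on the high-fat diet, for an intervention of 12 weeks, and no group on a normal diet was part of the comparison. The labels name rats and write the treatment as HCG in 1 field, the RNA sequencing methods name C57BL/6 J mice, and the rows carry mouse Ensembl identifiers, so the rows were read as mouse genes. The diet, vehicle and duration are those that the series gives for its rats. The study's methods describe male Wistar rats that received HTG by gavage from the fifth week of the diet, and give neither dosing nor age and sex for the mice. Which of these animals the libraries came from cannot be told apart from the sources used here.

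Hepatokines carry signals from hepatocytes to muscle, fat, vessels and brain, and many of them change with feeding, fasting or fat in the liver. The fetuins Ahsg and Fetub are plasma glycoproteins of the cystatin superfamily, and Ahsg is known as an inhibitor of insulin receptor signalling and of calcification. Angiopoietin-like proteins act on vessels and on plasma triglyceride: Angptl8, which is raised by feeding and insulin, takes part in the inhibition of lipoprotein lipase, and fasting raises Angptl4, another inhibitor of this enzyme. Gdf15 and Inhbe belong to the transforming growth factor beta superfamily, and Gdf15 is a stress-induced hormone that lowers appetite. Lect2 is a secreted chemotactic protein, and Tsku is a small leucine-rich proteoglycan.

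The estimated counts summed to between 50648778 and 90563477 per library. Low counts came in steps of about 4, so that a depth of 12662194 to 22640869 fragments per library was taken. All 8 genes passed the expression filter, and their counts lay between 240 and 611655 in every library, above the limit of 12 counts (3 fragments) that an empty gene allows, a limit that covers counting error only. The hepatocyte markers were abundant, with a summed FPKM (fragments per kilobase of transcript, scaled to library size) of 41033 to 49347 in the HFD libraries and 35913 to 39557 in the HTG libraries. These 8 markers did not move together: in the edgeR fit described below, 2 were higher and 6 lower in HTG livers, with log2 fold changes from -1.62 to 0.85. Of the 5 adipocyte markers listed, 4 were found in the table, and their summed FPKM was at most 0.41 in any library. Kupffer cell markers were present and summed to 253 to 543 FPKM in the HFD libraries and 175 to 339 in the HTG libraries. Fewer cells of a type, less RNA per cell and changes of single marker genes cannot be told apart in such bulk samples. The share of counts from the mitochondrial chromosome was 4.97 to 6.45% in the HFD libraries and 9.31 to 15.2% in the HTG libraries.

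The 8 genes spanned a wide range of levels. Per length, Ahsg was the highest in both groups, with 3858 ± 140 FPKM in the HFD group and 3122 ± 440 in the HTG group (SD, n = 3 per group). Fetub followed with 435 ± 100 and 598 ± 91.3 FPKM (SD, n = 3 per group). Neither the range of Ahsg nor that of Fetub overlapped with the next gene in the order. In the HFD group Lect2, Tsku and Angptl8 came next, and the FPKM ranges of neighbours among these overlapped. In the HTG group the order by mean FPKM was Angptl8, Lect2 and Tsku, and the range of Angptl8 (30.97 to 415.76) contained that of Lect2 (90.53 to 94.64), whereas Tsku lay below Lect2 without overlap. Inhbe, Angptl6 and Gdf15 were the lowest in both groups, each with a mean under 10 FPKM, and their neighbouring ranges overlapped. The table annotates 7 of the 8 genes, all but Lect2, with the term extracellular region, against 5.61% of the genes tested.

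**Figure D1:**
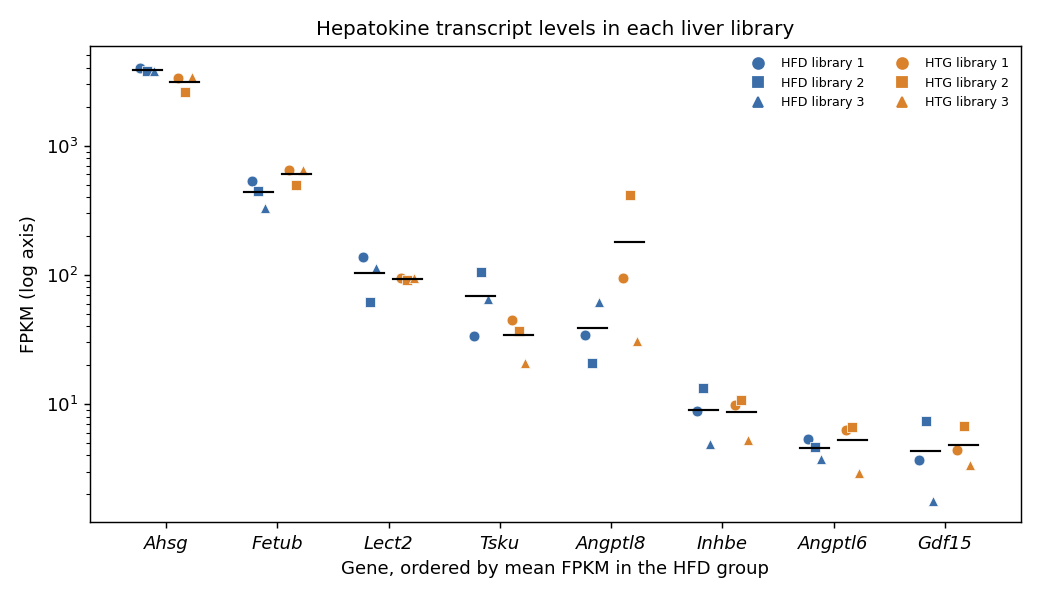
FPKM of the 8 hepatokine genes (log axis) in each library, with HFD in blue, HTG in orange, marker shapes for libraries 1 to 3 and black bars for group means. Ahsg and Fetub stand above all the other genes, and Angptl8 spreads from 20.65 to 415.76 FPKM.

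The comparison asked whether HTG changed these transcripts on the high-fat diet. By edgeR's quasi-likelihood test, with the Benjamini-Hochberg method over 18455 genes tested, 0 of the 8 genes passed an adjusted p of 0.05, which 0.0108% of genes tested passed (0.00542% in each direction). DESeq2 and limma likewise gave 0 of 8, although far more genes passed this cutoff in most of these fits. DESeq2 passed 2401 of 18455 genes, 1091 of them with more RNA in HTG livers and 1310 with less. Limma passed 878 of 10930 on log2(FPKM + 0.1), 326 with more and 552 with less. It passed 884 of 10930 on log2(FPKM + 1), and 0 of 29341 with no filter. At an adjusted p under 0.1, passed by 10.8% of genes tested (5.41% higher and 5.43% lower in the HTG group), edgeR gave 0 of 8 too. At an unadjusted p under 0.05 there was 1 gene, Angptl8, which was higher, against 24.7% of genes tested (12.3% higher and 12.4% lower). The CPM of both groups (counts scaled to library size with edgeR's TMM factors, not per length) overlapped in all 8 genes, whereas they did not overlap in 32.1% of genes tested (16.5% higher and 15.5% lower). Fitted values were higher in the HTG group for 4 genes and lower for 4. The median log2 fold change was 0.05, against 0.03 over all genes tested. The 95% intervals were wide: a change of 1.42-fold upwards for Lect2 and of 2.44-fold for Gdf15 lay within them. With 3 libraries against 3, the smallest p of an exact two-sided permutation test is 0.1.

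**Figure D2:**
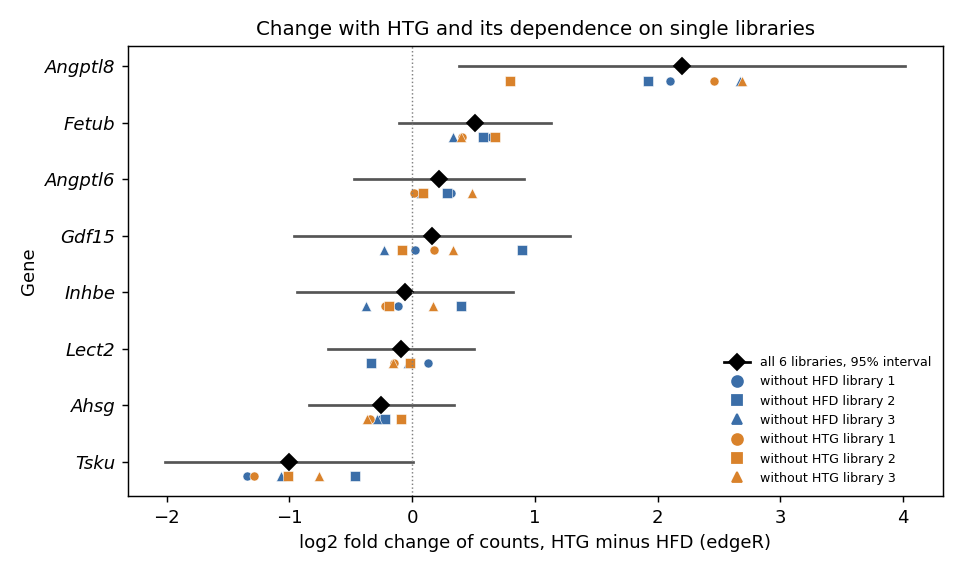
Log2 fold change of counts (HTG minus HFD, edgeR) of the 8 genes with all 6 libraries (black diamonds, 95% intervals) and with 1 library left out (coloured markers). The interval of Angptl8 alone lies above 0, and its estimate drops from 2.20 to 0.80 without HTG library 2.

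The fetuin genes Ahsg (ENSMUSG00000022868, chromosome 16, 22710027 to 22718199) and Fetub (ENSMUSG00000022871, chromosome 16, 22737084 to 22758528) are adjacent on the same strand, 18884 bases apart, in coordinates given as the table lists them without a stated build. Ahsg had an FPKM of 4019.98, 3773.34 and 3781.18 (HFD libraries 1 to 3) and of 3329.80, 2615.85 and 3418.94 (HTG libraries 1 to 3). Every HTG library was below every HFD library on the FPKM scale, a separation seen in 30.6% of genes tested. On the CPM scale the groups overlapped, since HTG library 3 (8630 CPM) lay above HFD library 3 (8362 CPM). The log2 fold change of Ahsg was -0.25 with a standard error of 0.26 (edgeR, adjusted p = 0.582). Fetub had an FPKM of 529.84, 445.92 and 330.58 (HFD libraries 1 to 3) and of 648.55, 492.90 and 653.42 (HTG libraries 1 to 3). HTG libraries 1 and 3 were above all HFD libraries, and HTG library 2 was below HFD library 1. Its log2 fold change was 0.51 with a standard error of 0.27 (edgeR, adjusted p = 0.283) and a 95% interval from -0.11 to 1.14. Without HTG library 2 it was 0.68, with an unadjusted p of 0.0336 (edgeR), a cutoff of 0.05 that 3086 of 19095 genes tested passed in that fit. With each of the other libraries left out it lay between 0.33 and 0.64, with an unadjusted p of 0.0929 to 0.269.

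The ratio of Fetub to Ahsg within a library, which does not depend on the scaling between libraries, separated the groups. It was 0.132, 0.118 and 0.0874 (HFD libraries 1 to 3) and 0.195, 0.188 and 0.191 (HTG libraries 1 to 3) on the FPKM scale. The mean was 0.112 ± 0.0227 in the HFD group and 0.191 ± 0.00318 in the HTG group (SD, n = 3 per group). The log2 ratio was 0.79 higher in the HTG group (exact two-sided permutation test, p = 0.1, the smallest that 3 libraries against 3 allow; adjusted p = 0.25 over the 5 ratios computed). With 1 library left out in turn the difference stayed between 0.62 and 0.91. How often the ratios of other gene pairs separate the groups was not counted. For single genes, the FPKM of the groups did not overlap in 30.6% of genes tested. Of the other type 3 cystatin genes on this stretch of chromosome 16, Hrg, which encodes histidine-rich glycoprotein, had a log2 fold change of -0.33 (standard error 0.27) and the kininogen genes Kng1 and Kng2 had 0.39 (standard error 0.29) and 0.11 (standard error 0.24). None of the 5 genes had an unadjusted p under 0.05 in edgeR.

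**Figure D3:**
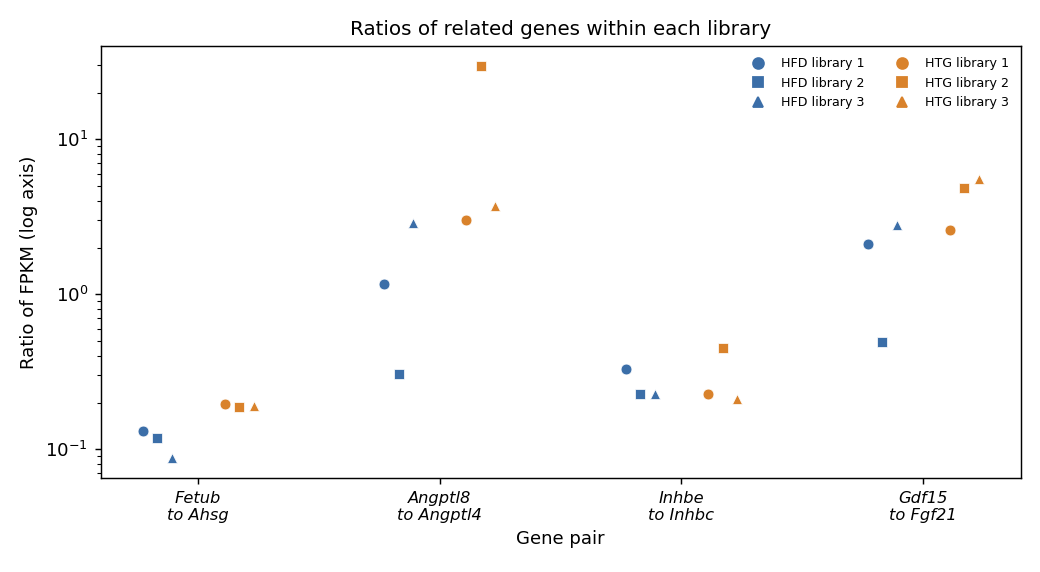
Ratios of FPKM of 4 gene pairs (log axis) within each library, with HFD in blue, HTG in orange and marker shapes for libraries 1 to 3. The HTG ratios of Fetub to Ahsg (0.188 to 0.195) all lie above the HFD ratios (0.0874 to 0.132), and HTG library 2 stands high in the ratio of Angptl8 to Angptl4 (29.8).

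Angptl8 (ENSMUSG00000047822, chromosome 9, 21746806 to 21748643) differed most between libraries among the 8 genes. It had an FPKM of 34.43, 20.65 and 61.68 (HFD libraries 1 to 3) and of 95.37, 415.76 and 30.97 (HTG libraries 1 to 3). HTG library 2 was far above the rest, HTG library 1 was above all HFD libraries, and HTG library 3 lay within the HFD range. The CPM of the highest HTG library was 11.6 times that of the lowest, a spread wider than in 98.9% of genes with counts in every HTG library. The log2 fold change was 2.20 with a standard error of 0.79 (edgeR, unadjusted p = 0.0231, adjusted p = 0.137) and a 95% interval from 0.39 to 4.02. Without HTG library 2 it was 0.80 (unadjusted p = 0.171). The unadjusted p was 0.071 without HFD library 1 (log2 fold change 2.11) and 0.0723 without HFD library 2 (1.92), and in limma on log2(FPKM + 0.1) it was 0.102. Angptl8 lies inside the span of Dock6 on the opposite strand. Dock6 counts were also lowest in HFD library 2 (802) and highest in HTG library 2 (6033), against 1318 and 34778 counts of Angptl8. The use of strand in counting is not given, so reads of both genes in shared sequence cannot be told apart.

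Angptl4 had an FPKM of 29.77, 67.22 and 21.46 (HFD libraries 1 to 3) and of 31.60, 13.93 and 8.32 (HTG libraries 1 to 3). Its log2 fold change was -1.13 with a standard error of 0.57 (edgeR, adjusted p = 0.26). The ratio of Angptl8 to Angptl4 was 1.16, 0.307 and 2.87 (HFD libraries 1 to 3) and 3.02, 29.8 and 3.72 (HTG libraries 1 to 3) on the FPKM scale. The groups did not overlap in this ratio, although HFD library 3 and HTG library 1 were close (exact two-sided permutation test, p = 0.1; adjusted p = 0.25), and the log2 difference of 2.79 was 1.73 without HTG library 2. The share of other gene pairs with such a separation was not counted.

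Angptl6 (ENSMUSG00000038742, chromosome 9, 20785104 to 20791023), an angiogenic growth factor, had an FPKM of 5.40, 4.67 and 3.73 (HFD libraries 1 to 3) and of 6.33, 6.61 and 2.92 (HTG libraries 1 to 3). HTG library 3 was the lowest of all libraries and the other HTG libraries were the highest. Angptl6 had a log2 fold change of 0.22 with a standard error of 0.30 (edgeR, adjusted p = 0.685). Angptl6 shares 500 bases with the antiviral gene Shfl on the opposite strand. Shfl had 6735 to 8818 counts in the HFD libraries and 11078 to 23770 in the HTG libraries (log2 fold change 1.04, adjusted p = 0.0542, edgeR's quasi-likelihood test), and its part in the Angptl6 counts was not tested.

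Of the 15 other genes of the angiopoietin-like and lipoprotein lipase list, 14 were tested. By the unadjusted p of 0.05, 1 gene was higher in HTG livers and 3 were lower (24.7% of all genes tested passed, 12.3% higher and 12.4% lower), and 0 had an adjusted p under 0.05 (edgeR; DESeq2 is given with the alternatives). The median log2 fold change of the list was -0.34, and 0.005 without HFD library 2. Apoc3, whose product inhibits the clearance of triglyceride-rich particles, was at 725 ± 148 FPKM in the HFD group and 1392 ± 205 in the HTG group (SD, n = 3 per group; log2 fold change 0.99, adjusted p = 0.0612). Furin, a protease that cleaves Angptl4 and endothelial lipase, was at 17.8 ± 3.54 and 10.5 ± 1.72 FPKM (SD, n = 3 per group; log2 fold change -0.72, adjusted p = 0.0816). Angptl2 was at 2.05 ± 0.409 and 1.23 ± 0.211 FPKM (SD, n = 3 per group; log2 fold change -0.70, adjusted p = 0.0972). Lipg, the gene of endothelial lipase, had an FPKM of 0.42, 2.27 and 2.37 (HFD libraries 1 to 3) and of 0.24, 0.71 and 0.17 (HTG libraries 1 to 3) (log2 fold change -2.18, adjusted p = 0.11), so its groups overlapped. Lpl, the gene of lipoprotein lipase, had a log2 fold change of 0.31 with a standard error of 0.38 (edgeR, adjusted p = 0.657). These p-values are from edgeR's quasi-likelihood test.

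Gdf15 (ENSMUSG00000038508, chromosome 8, 71082043 to 71085106) had an FPKM of 3.70, 7.45 and 1.79 (HFD libraries 1 to 3) and of 4.42, 6.78 and 3.38 (HTG libraries 1 to 3). The highest and the lowest library were both in the HFD group, and all HTG libraries lay between them. The log2 fold change was 0.16 with a standard error of 0.49 (edgeR, adjusted p = 0.87). Without HFD library 2 it was 0.90 (unadjusted p = 0.0477), in a fit where 3929 of 19352 genes tested had an unadjusted p under 0.05. Its direction turned without HFD library 3 (-0.22) or without HTG library 2 (-0.08). Inhbe (ENSMUSG00000047492, chromosome 10, 127184726 to 127190280), the gene of the inhibin beta E subunit, had an FPKM of 8.83, 13.29 and 4.95 (HFD libraries 1 to 3) and of 9.86, 10.78 and 5.28 (HTG libraries 1 to 3). HFD libraries 2 and 3 were again its highest and lowest. The log2 fold change of Inhbe was -0.06 with a standard error of 0.38 (edgeR, adjusted p = 0.943), and its direction turned without HFD library 2 (0.40) or without HTG library 3 (0.17).

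Inhbc, the gene of the inhibin beta C subunit, is the neighbour of Inhbe at a distance of 1910 bases. It had an FPKM of 26.85, 58.39 and 21.72 (HFD libraries 1 to 3) and of 43.05, 24.09 and 25.12 (HTG libraries 1 to 3), a log2 fold change of -0.20 (standard error 0.42). The ratio of Inhbe to Inhbc was 0.261 ± 0.0584 in the HFD group and 0.296 ± 0.132 in the HTG group on the FPKM scale (SD, n = 3 per group; exact two-sided permutation test, p = 0.8). Fgf21, a fasting and stress hormone of the liver, had an FPKM of 1.76, 15.09 and 0.64 (HFD libraries 1 to 3) and of 1.69, 1.40 and 0.61 (HTG libraries 1 to 3). HFD library 2 set its log2 fold change of -2.28 with a standard error of 1.04 (edgeR, adjusted p = 0.22), which was 0.11 without that library. The ratio of Gdf15 to Fgf21 was 2.10, 0.494 and 2.80 (HFD libraries 1 to 3) and 2.62, 4.84 and 5.54 (HTG libraries 1 to 3) on the FPKM scale, with an overlap of the groups (exact two-sided permutation test, p = 0.2).

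In the list of activin and transforming growth factor beta genes, 13 of 15 were tested. By the unadjusted p of 0.05 in edgeR, 2 genes were higher in HTG livers and 2 were lower, against 24.7% of all genes tested. Inhba, the gene of the inhibin beta A subunit, was at 1.24 ± 0.658 FPKM in the HFD group and 2.58 ± 0.625 in the HTG group (SD, n = 3 per group; log2 fold change 1.12, adjusted p = 0.108). Fst, whose product binds activins, had an FPKM of 0.57, 0.58 and 0.54 (HFD libraries 1 to 3) and of 0.35, 1.34 and 4.11 (HTG libraries 1 to 3), so HTG library 1 was the lowest of all (log2 fold change 1.86, adjusted p = 0.168). Smad2, which carries activin signals into the nucleus, was at 1.54 ± 0.12 and 0.643 ± 0.1 FPKM (SD, n = 3 per group; log2 fold change -1.22, adjusted p = 0.0538). Smad4, its common partner, was at 5.11 ± 0.953 and 3.06 ± 0.303 FPKM (SD, n = 3 per group; log2 fold change -0.70, adjusted p = 0.108). Of the 12 targets and regulators of the integrated stress response, a pathway that can induce Gdf15 and Fgf21, 1 had an unadjusted p under 0.05, against 24.7% of all genes tested. This was Atf3, at 4.04 ± 2.15 and 1.86 ± 0.492 FPKM (SD, n = 3 per group; log2 fold change -1.07, adjusted p = 0.124). Atf4, the central factor of that response, had a log2 fold change of 0.20 with a standard error of 0.17 (edgeR, adjusted p = 0.502). These p-values are from edgeR's quasi-likelihood test.

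Lect2 (ENSMUSG00000021539, chromosome 13, 56690277 to 56696315) had an FPKM of 136.50, 61.27 and 113.58 (HFD libraries 1 to 3) and of 94.04, 90.53 and 94.64 (HTG libraries 1 to 3). The HTG libraries lay close together, inside the HFD range. Lect2 had a log2 fold change of -0.09 with a standard error of 0.26 (edgeR, adjusted p = 0.864), and 0.13 without HFD library 1. HFD library 2, the lowest for Lect2, also had the lowest summed endothelial markers (12.6 FPKM against 20.4 to 36.5 in the other libraries) and the lowest summed Kupffer cell markers of its group (253 FPKM). HTG library 3 had a lower Kupffer cell sum (175 FPKM) and the next lowest endothelial sum (20.4 FPKM), with Lect2 at 94.64 FPKM. The part of these cells in the Lect2 values was not tested.

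Tsku (ENSMUSG00000049580, chromosome 7, 97999875 to 98010499) had an FPKM of 33.64, 106.05 and 65.60 (HFD libraries 1 to 3) and of 44.56, 37.05 and 20.74 (HTG libraries 1 to 3). HFD libraries 2 and 3 were above all HTG libraries, and HFD library 1 was below HTG libraries 1 and 2. The log2 fold change was -1.002 with a standard error of 0.44 (edgeR, unadjusted p = 0.0513, adjusted p = 0.205) and a 95% interval from -2.01 to 0.01. Without HFD library 2 it was -0.47 (unadjusted p = 0.25). The unadjusted p was 0.00799 without HFD library 1 (log2 fold change -1.35) and 0.0376 without HTG library 1 (-1.29). It was 0.0745 to 0.153 with HFD library 3, HTG library 2 or HTG library 3 left out. In DESeq2 it was 0.0131 (adjusted p = 0.0752).

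Among the 18 other hepatokines listed, all tested, edgeR placed 4 higher and 3 lower in HTG livers by the unadjusted p of 0.05, which 24.7% of all genes tested passed. Left-out libraries moved these counts: 1 was higher without HFD library 1 or HTG library 3, and 2 without HFD library 2, HFD library 3 or HTG library 1. Without HTG library 2 there were 7 higher and 1 lower, where 3086 of 19095 genes tested passed (1541 higher and 1545 lower). In the other left-out fits 3444 to 4958 of 19234 to 19391 genes tested passed, of which 1770 to 2134 were higher. The median log2 fold change of the list was 0.35 (0.01 without HTG library 3), and 0 had an adjusted p under 0.05 (edgeR). Fst, given above, and the hepcidin gene Hamp (log2 fold change 2.18, adjusted p = 0.191) were among the higher ones. Rarres2, the gene of the adipokine chemerin, was at 115 ± 28 FPKM in the HFD group and 169.5 ± 30.2 in the HTG group (SD, n = 3 per group; log2 fold change 0.61, adjusted p = 0.149). Manf, which encodes a secreted protein of the endoplasmic reticulum stress response, was at 16.2 ± 4.88 and 27.0 ± 7.82 FPKM (SD, n = 3 per group; log2 fold change 0.82, adjusted p = 0.148). Gpnmb, a transmembrane glycoprotein whose shed part is released, had an FPKM of 20.40, 14.51 and 16.47 (HFD libraries 1 to 3) and of 7.60, 3.56 and 0.57 (HTG libraries 1 to 3) (log2 fold change -2.10, adjusted p = 0.118). Gpnmb is also made by macrophages, and all 8 Kupffer cell markers had fitted values below those of the HFD group (median log2 fold change -0.44, 2 at an unadjusted p under 0.05), from -0.02 to -1.53 for Adgre1 (adjusted p = 0.0538), with the defining marker Clec4f at -0.08. Without HFD library 1, HFD library 3 or HTG library 3, 6 of the 8 were lower, and 7 without HTG library 1. The part of these cells in the Gpnmb values was not tested. Selenop, the gene of the selenium carrier of plasma, was at 1823 ± 179 and 1084 ± 317 FPKM (SD, n = 3 per group; log2 fold change -0.71, adjusted p = 0.186). Dpp4, a peptidase that inactivates incretins, was at 14.9 ± 1.5 and 9.93 ± 1.57 FPKM (SD, n = 3 per group; log2 fold change -0.55, adjusted p = 0.0948). These p-values are from edgeR's quasi-likelihood test.

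Of the 14 receptors and signalling partners of hepatokines listed, 12 were tested and 1, Klb, had an unadjusted p under 0.05, against 24.7% of all genes tested. Klb encodes beta-klotho, the co-receptor of Fgf21, and had an FPKM of 3.05, 3.80 and 4.15 (HFD libraries 1 to 3) and of 1.61, 1.73 and 1.01 (HTG libraries 1 to 3) (log2 fold change -1.31, adjusted p = 0.0542, edgeR's quasi-likelihood test). Every HTG library was below every HFD library, and the FPKM of 30.6% of genes tested did not overlap either way. The receptor gene of Gdf15, Gfral, was not analysed here, and its co-receptor gene Ret had at most 0.02 FPKM.

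Since Angptl8 is a known target of insulin and of lipogenic factors, 14 lipogenic genes were compared as well. By the unadjusted p of 0.05 in edgeR, 1 gene was higher in HTG livers and 2 were lower (14 tested), against 24.7% of all genes tested. The direction of the list rested on HFD library 3: the median log2 fold change was -1.59 with 10 of 14 genes lower, and 0.57 with 10 of 14 higher (5 of them at an unadjusted p under 0.05) without that library. In the fit without HFD library 3, 3952 of 19234 genes tested passed this p, 1999 of them higher. Mlxipl, the gene of the carbohydrate-response factor ChREBP, had an FPKM of 58.90, 46.76 and 82.70 (HFD libraries 1 to 3) and of 101.68, 196.16 and 147.61 (HTG libraries 1 to 3) (log2 fold change 1.29, adjusted p = 0.0613), without overlap of the groups. Srebf1, the gene of the sterol regulatory factor SREBP-1, was highest in HTG library 2 (107.19 FPKM) and lowest in HFD library 2 (13.99 FPKM), the same libraries as for Angptl8, with a log2 fold change of 0.79 with a standard error of 0.56 (edgeR, adjusted p = 0.417). Me1, the gene of malic enzyme, was at 32.7 ± 23 FPKM in the HFD group and 7.04 ± 1 in the HTG group (SD, n = 3 per group; log2 fold change -2.16, adjusted p = 0.0616). HFD library 3 stood far above the others for Acly, the gene of ATP citrate lyase (192.45 FPKM against 7.44 to 15.11), and the log2 fold change of Acly of -2.72 became -0.09 without it. The same library was the highest for Fasn, the fatty acid synthase gene (284.15 FPKM against 5.13 to 42.42). These p-values are from edgeR's quasi-likelihood test.

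Single libraries set the extremes of several of the 8 genes. The CPM of the highest library was at least 3 times that of the lowest in 2 of the 8 genes within the HFD group (Gdf15 with 4.57 and Tsku with 3.50), against 17.1% of genes tested, and in 1 gene within the HTG group (Angptl8), against 16.1% of genes tested. On the CPM scale, HFD library 2 was the highest of the 6 libraries for 4 of them (Ahsg, Gdf15, Inhbe and Tsku) and the lowest for Angptl8 and Lect2. It was also the highest for Fgf21, Angptl4 and Inhbc and the lowest for Srebf1, Mlxipl and Fasn. For Ahsg this depended on the scale, since HFD library 2 had the lowest FPKM of its group (3773.34). The share of all genes tested that were highest or lowest in each library was not counted. HFD library 3 was the lowest for 3 of the 8 genes, Fetub, Gdf15 and Inhbe, and the highest for Fasn. HTG library 2 was the highest for Angptl8 and the lowest for Ahsg. The study's methods describe fasting before sampling for rats, and give no feeding state for the mice they name for RNA sequencing.

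**Figure D4:**
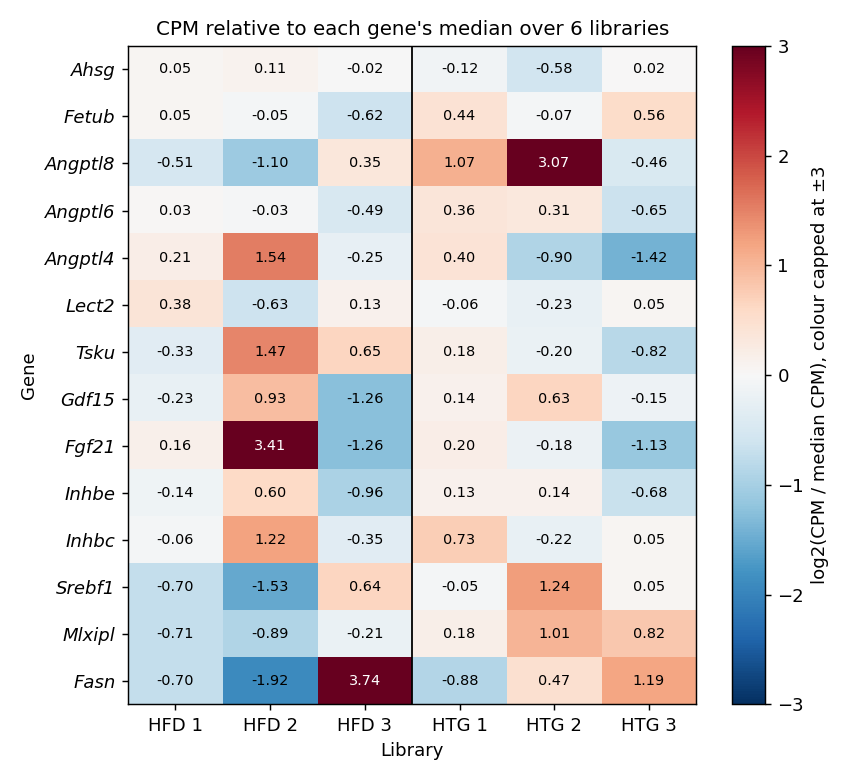
Log2 of CPM over the gene's median CPM of the 6 libraries, for the 8 hepatokine genes and 6 related genes, with 1 column per library and colours from blue (low) to red (high). HFD library 2 is high for Fgf21 (3.41), Angptl4 (1.54) and Tsku (1.47) and low for Angptl8 (-1.10), and HTG library 2 is high for Angptl8 (3.07).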

How the data were processed

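Liver RNA of 3 HFD and 3 HTG animals was sequenced from paired-end, strand-marked poly(A) libraries. Per the labels, the submitters' processing notes list HISAT2, StringTie and SAMtools and the rat build mRatBN7.2, without roles or versions, while the rows are mouse Ensembl genes. The authors deposited estimated counts per gene as whole numbers, without scaling between libraries, and FPKM values scaled by transcript length and library size. Use of strand and filters are not given in the sources used here.

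Counts were tested with edgeR 4.0.16 (glmQLFit, glmQLFTest, TMM scaling, filterByExpr, group as the only term) in R 4.3.3, checked on simulated counts. Standard errors and 95% intervals were taken from the quasi-likelihood F statistic. Of 5 ratios compared by exact two-sided permutation tests in scipy 1.17.1 and adjusted together, 4 are given, since 1 gene of the lists is not reported here. Alternatives used DESeq2 1.42.0, limma 3.58.1 on FPKM, other filters and scalings, the replicate number as a block and each library left out.

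The 8 genes, the 7 related lists and the marker lists were chosen with earlier results of these data known. Named were the 8 genes, 10 fixed relatives, up to 3 genes per list and direction with the smallest unadjusted p under 0.05, and the 2 genes most correlated with each of the 8. Hamp, Adgre1, Clec4f, Shfl, Dock6, Gfral, Ret and Fasn are named outside this rule, those with values after these were seen. P-values of the fits weigh the group difference against the spread between libraries within a group. Those of the permutation tests compare it with the differences of relabelled libraries. No mouse sequences were used here.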

Additional observations from a re-analysis of the deposited data

How the results depend on the processing

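No alternative gave any of the 8 genes an adjusted p under 0.05. With each library left out in turn, the log2 fold change ranged from -0.33 to 0.13 for Lect2, -0.22 to 0.90 for Gdf15, -0.37 to 0.40 for Inhbe, -2.81 to 0.11 for Fgf21, -0.56 to 0.43 for Inhbc and -0.063 to 0.28 for Kng2, the median of the 8 genes from -0.13 to 0.34, and the log2 ratio of Inhbe to Inhbc from -0.23 to 0.31, so that the directions of these turned. At an adjusted p under 0.1, DESeq2 called 1 of the 8 genes lower (Tsku), where 1845 of 18455 genes tested were called lower. At an unadjusted p under 0.05, the higher gene Angptl8 was lost (0 called) in the 3 limma fits and, with 1 library left out, 0 to 1 genes were higher and 0 to 1 lower. Over all genes, 1541 to 2134 were higher and 1545 to 2866 lower with 1 library left out. DESeq2, DESeq2 size factors, no filter and a minimum of 10 counts per library each gave 1 lower gene, Tsku. In these fits 2557 of 18455, 2424 of 18455, 2605 of 29763 and 2107 of 15454 genes tested were lower.

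Counts over all genes moved more. At an adjusted p under 0.05 (2 genes in edgeR) there were 2401 in DESeq2, 162 with no filter, 684 with at least 10 counts in every library, 14 without the mitochondrial chromosome, 822 with counts divided by 4, 878 and 884 in limma on log2(FPKM + 0.1) and log2(FPKM + 1), 0 in limma with no filter, and 0 to 653 with a library left out. At an adjusted p under 0.1 (2001 genes) there were 3444 in DESeq2, 1303 with no filter and 530 in limma with no filter. With a library left out there were 0 to 2578: 417 without HFD 1, 16 without HFD 2, and 0 without HFD 3, HTG 2 or HTG 3. Limma on log2(FPKM + 0.1) split 935 higher and 1464 lower, against 999 and 1002 in edgeR. Of the related lists, 84 genes were tested in edgeR. In these lists, an adjusted p under 0.05 was reached by 0 genes in edgeR (19 at an unadjusted p under 0.05), 13 in DESeq2, 2 with no filter, 5 with at least 10 counts, 5 with counts divided by 4, 2 and 3 in limma, and 0 to 3 with a library left out. An adjusted p under 0.1 was reached by 8 in edgeR, 17 in DESeq2, 5 with no filter, 13 and 13 in limma, 2 in limma with no filter, and 0 to 12 with a library left out. The cause of these shifts was not tested.

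With the replicate block, 0 genes had an adjusted p under 0.05 or under 0.1, over all genes as in the related lists, and 0 of the 8 genes were higher at an unadjusted p under 0.05. Inhbe turned to 0.029 and Angptl8 was at 1.63 (unadjusted p = 0.136). The deviations of same-numbered libraries had correlations of -0.078, -0.073 and 0.101, against -0.121 to 0.185 for libraries of different number. So few libraries cannot show whether the number marks a pairing or a batch. With 3 libraries per group, wide intervals limit every statement on single genes.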

Other observations

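Each of the 8 genes was set beside the 8015 genes with a mean of at least 10 CPM, by Pearson's r of log2(CPM + 1) over the 6 libraries, as a description of likeness. The genes most like Angptl8 were Atf7ip (r = 0.989) and Mgst3 (r = 0.983), those most like Ahsg were Serpina3n (r = 0.99) and the C-reactive protein gene Crp (r = 0.987), and those most like Fetub were Onecut2 (r = 0.992) and Glrx2 (r = 0.988). Tsku was most like Rnf138 (r = 0.98) and the peroxisomal beta-oxidation gene Ehhadh (r = 0.976), and Lect2 was most like Acp2 (r = 0.976) and the integrin gene Itga1 (r = 0.968). Gdf15 was most like Aatf (r = 0.991) and Cdk9 (r = 0.987), Inhbe was most like Phf23 (r = 0.992) and Optn (r = 0.986), and Angptl6 was most like Amotl2 (r = 0.97) and Slc38a7 (r = 0.958). These pairs were picked as the highest of many over only 6 libraries, which fall into 2 groups, and between 13 and 153 genes had an r of at least 0.9 with each of the 8. Without the 2 libraries farthest from the gene's median, r of these pairs lay between 0.745 and 0.994.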
